A study of Homo sapiens with 4 samples.

Results

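The mitochondrial protein import genes are the protein-coding genes whose symbol starts with TIMM or TOMM and a digit, the genes of the translocases of the inner and outer mitochondrial membrane. The rule used names only and found 26 genes of the 51740 rows of the deposited table, 19041 of which are protein-coding. Their RNA was compared between the cytoplasm and the nucleus of HEK293T cells, an established line of human embryonic kidney origin that expresses the large T antigen of SV40. Cells of 2 biological replicates were crosslinked with formaldehyde and split into a cytoplasmic and a nuclear fraction, which gave 2 libraries of each fraction and 4 in all. No treatment, knockdown or transgene distinguished the groups, and the comparison asks where in the cell the RNA of each gene was found.

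Nearly all mitochondrial proteins are encoded in the nucleus, made in the cytoplasm and then carried into the organelle. The TOM complex of the outer membrane recognises precursors and passes them through its TOM40 pore. Small TIM chaperones shield hydrophobic precursors in the space between the membranes. The TIM22 complex then inserts carrier proteins into the inner membrane, while the TIM23 complex threads presequence proteins across it and, with a motor, into the matrix. An mRNA of these genes has to leave the nucleus before it can be translated.

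The files hold no column for a single library, so the whole read counts of each library were solved from the deposited means and fold changes. For each of the 26 import genes between 1 and 29 sets of whole counts in the range of the deposited fold change gave the deposited mean, and only 1 of them also matched that fold change, with a residual of at most 3.03e-07 on the log2 scale. The library with the larger total in each fraction is called A and the other B, and the labels do not tie either to a replicate number. Totals were about 24194207 and 21914088 reads for cytoplasmic A and B and 24569898 and 21347184 for nuclear A and B. These totals contain an estimate for genes that could not be solved, and the solved genes held between 60.6% and 88.2% of them. A normalized read count below is a read count divided by the library's size factor, with exonic and intronic reads counted together. The log2 fold change is cytoplasmic over nuclear. Equal masses of RNA went into the libraries, so each value is relative to the RNA of its fraction. The amounts per cell in nucleus and cytoplasm cannot be compared from these values. A call is an adjusted p of at most 0.01 from limma on voom values across 17395 genes with a mean normalized count of at least 10. The nuclear RNAs NEAT1 and KCNQ1OT1 were higher in the nucleus, with log2 fold changes of -3.08 and -4.23. MEG3 had at most 1 read in any library, and the markers MALAT1, GAPDH, ACTB, EEF1A1 and RPLP0 were not solved. Of the HEK293T markers, KRT8, KRT18, INA and PAX2 were measured above the filter, and NEFL, NEFM and VIM were not solved. Markers of leukocytes, endothelium and hepatocytes had at most 12 reads in any library, whereas the fibroblast gene COL1A1 had between 186 and 252 reads and COL1A2 at most 1.

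Of the 26 genes, 25 passed the filter. The cytoplasm was higher for 21 of them and the nucleus for 2, TIMM23B and TIMM23B-AGAP6, and TIMM21 and TIMM9 were not called. Over all tested genes the shares called were 38% towards the cytoplasm and 39.7% towards the nucleus, and over the 13467 tested protein-coding genes they were 42.9% and 35.7%. The median log2 fold change of the import genes was 2.12, against 0.15 for the tested protein-coding genes, with a range from -4.75 to 3.74. All 9 tested TOMM genes were called towards the cytoplasm, and 12 of the 16 TIMM genes were. Summed over the 26 genes, the normalized read counts were 54846 and 56246 in the cytoplasmic libraries and 16093 and 17053 in the nuclear ones. As a share of the library total, the sums were 0.193% and 0.194% in cytoplasm and 0.0878% and 0.095% in nucleus. The cytoplasmic and nuclear values did not overlap for 24 of the 25 genes, but with 2 libraries a fraction this held for 91.6% of all tested genes.

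**Figure D1:**
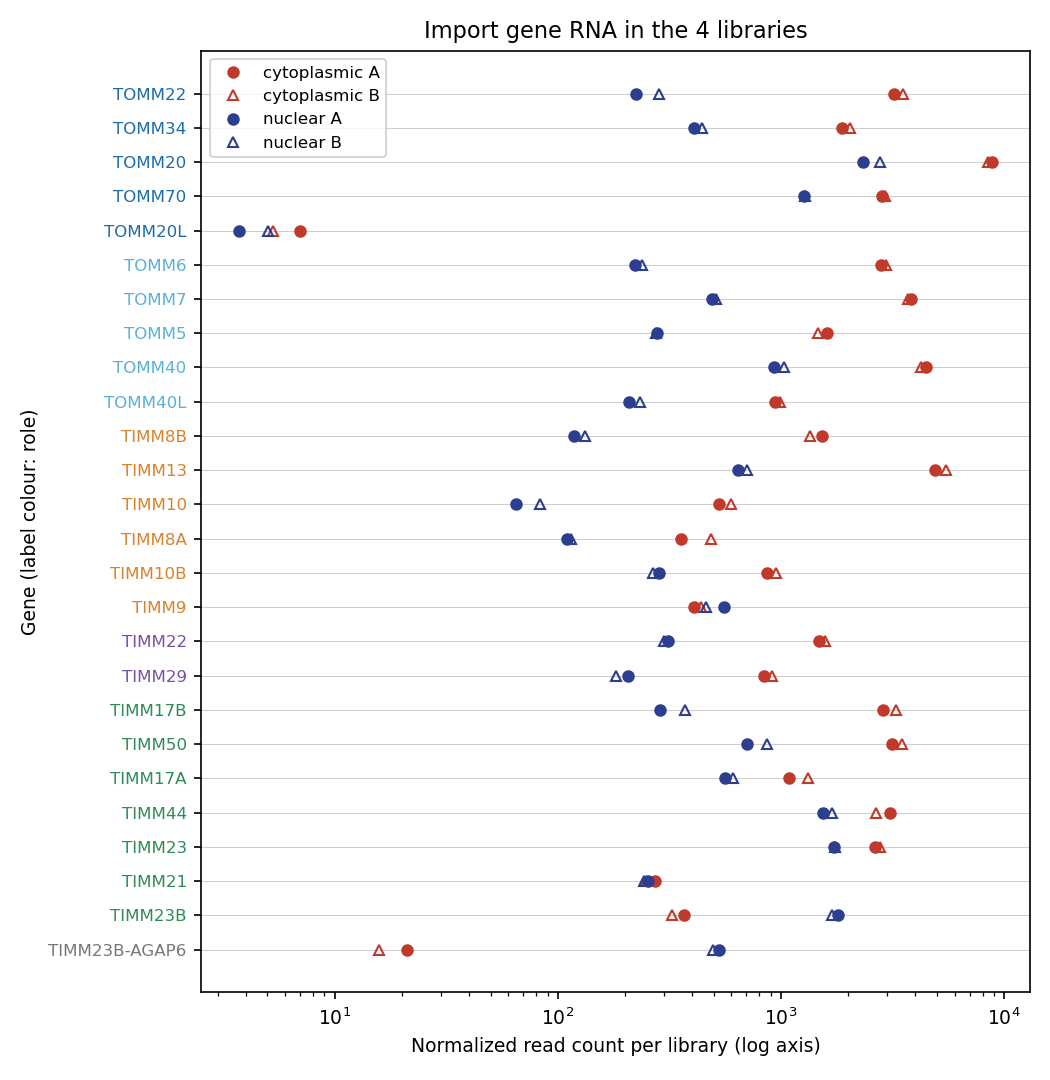
Normalized read count of each import gene in the 4 libraries on a log axis; red marks cytoplasmic and blue nuclear libraries, filled circles library A and open triangles library B, and gene labels are coloured by role. The red points of the 21 genes called towards the cytoplasm lie to the right of the blue ones. Those of TIMM23B and TIMM23B-AGAP6 lie to the left, and those of TIMM21 and TIMM9 lie close to the blue ones. TOMM20L, which was below the filter, has the lowest counts, and its red points lie slightly to the right.

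The scale of the libraries matters for the genes near zero. Scaling the libraries to equal totals moved the median of all tested genes by -0.66 on the log2 scale, and centring on the protein-coding median moved it by -0.15. With equal totals the share of all calls that pointed to the cytoplasm was 30.8%, against 48.9% with the size factors solved from the deposited means. Under equal totals 19 import genes were still called towards the cytoplasm. TIMM44 and TIMM23 were no longer called, and TIMM21 and TIMM9 were called towards the nucleus.

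The largest cytoplasmic difference among the import genes belonged to TOMM22, the central receptor that docks TOM20 to the pore. TOMM22 (chr22:38681957-38685421, hg38) had normalized read counts of 3207 and 3540 in the cytoplasmic libraries and 224 and 284 in the nuclear ones. Its log2 fold change was 3.74 ± 0.13 (SE, n = 2 libraries a fraction, limma adjusted p = 1.61e-21), or 13.4-fold. Every cytoplasmic value lay far above every nuclear one.

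The other receptors were also higher in the cytoplasm but by less. TOMM20, the presequence receptor, had normalized read counts of 8828 and 8487 in cytoplasm and 2342 and 2768 in nucleus, a 3.40-fold difference. TOMM70, the receptor for carrier precursors and chaperone-bound cargo, had 2843 and 2939 in cytoplasm and 1268 and 1287 in nucleus, a 2.26-fold difference. TOMM34, a cytosolic co-chaperone of import, had 1877 and 2046 in cytoplasm and 409 and 441 in nucleus, with a log2 fold change of 2.20 ± 0.11. PABPC1L covers 92.5% of the TOMM34 span in the GENCODE 44 annotation. TOMM20L, a paralog of TOMM20, had 6 and 4 reads in the cytoplasmic libraries and 5 and 6 in the nuclear ones and was below the filter.

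The genes of the pore and of the small subunits around it were all called towards the cytoplasm, against 38% of all tested genes. TOMM40, which forms the pore, had normalized read counts of 4481 and 4225 in cytoplasm and 935 and 1029 in nucleus. Its log2 fold change was 2.15 ± 0.11, and that of its paralog TOMM40L was 2.12 ± 0.13. Among the small subunits, TOMM6 had 2819 and 2964 in cytoplasm and 222 and 238 in nucleus, a log2 fold change of 3.65 ± 0.12. TOMM7 had 3828 and 3692 in cytoplasm against 491 and 510 in nucleus, with a log2 fold change of 2.91. TOMM5 had 1602 and 1464 against 277 and 277, with a log2 fold change of 2.47. The lowest log2 fold change among the 5 genes was 2.12.

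Of the 6 small TIM chaperone genes, 5 (83.3%) were called towards the cytoplasm, and the median of the group was 2.41. The share was 38% over all tested genes. Over protein-coding genes of at most 5 kb it was 86.4%, with a median of 2.23, and the median span of the group was 2.71 kb. TIMM8B had normalized read counts of 1529 and 1354 in cytoplasm and 119 and 133 in nucleus, an 11.5-fold difference. TIMM13, the partner of TIMM8A in a chaperone complex, had 4922 and 5476 in cytoplasm and 641 and 708 in nucleus, a 7.71-fold difference. TIMM10 had 526 and 599 in cytoplasm and 64.9 and 83.2 in nucleus, a 7.64-fold difference. TIMM8A, the gene affected in deafness-dystonia syndrome, had 358 and 488 against 110 and 114. TIMM10B, which holds the chaperones at the TIM22 complex, had 862 and 946 against 285 and 267, with a log2 fold change of 1.71 ± 0.13.

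TIMM9 stood apart from the other chaperone genes. Its product builds the carrier chaperone together with TIM10, yet TIMM9 (chr14:58408495-58427531) had normalized read counts of 406 and 440 in cytoplasm and 556 and 463 in nucleus. Its log2 fold change was -0.27, with a 95% interval from -0.54 to 0.0018 and a limma adjusted p of 0.061. The cytoplasmic values lay below the nuclear ones by less than the test could call. KIAA0586, TOMM20L and an unnamed gene overlap 98.6% of its span in the annotation, and the effect of that overlap was not tested.

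Both genes of the TIM22 carrier translocase were called towards the cytoplasm, against 38% of all tested genes. TIMM22, the channel subunit, had normalized read counts of 1477 and 1573 in cytoplasm and 311 and 299 in nucleus. TIMM29, which connects the complex to TOM, had 837 and 914 against 206 and 183. Their log2 fold changes were 2.32 ± 0.12 and 2.16 ± 0.14.

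The genes of the TIM23 presequence translocase had a median log2 fold change of 0.83 and a range from -2.33 to 3.23. The low end was TIMM23B alone, whose read counts are uncertain, as described below. The lowest of the other genes was TIMM21 at 0.07. The small TIM chaperone genes ranged from -0.27 to 3.52. TIMM17B, a channel subunit, had normalized read counts of 2875 and 3292 in cytoplasm and 289 and 373 in nucleus, a 9.41-fold difference. TIMM50, the receptor that receives presequences from TOM, had 3147 and 3468 in cytoplasm and 703 and 865 in nucleus, a 4.24-fold difference. TIMM17A, the paralog of TIMM17B, had 1082 and 1321 in cytoplasm and 561 and 609 in nucleus, a 2.04-fold difference.

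Smaller differences were found for the motor anchor and the channel. TIMM44, which tethers the import motor to the channel, had 3094 and 2670 in cytoplasm and 1544 and 1692 in nucleus, with a log2 fold change of 0.83 ± 0.11. TIMM23 had 2639 and 2766 in cytoplasm and 1732 and 1752 in nucleus, with a log2 fold change of 0.63 ± 0.10 (limma adjusted p = 1.49e-06). Both calls were lost when the libraries were scaled to equal totals, as stated above. TIMM21, which links TIM23 to TOM and the respiratory chain, had 273 and 248 in cytoplasm and 254 and 244 in nucleus. The values of TIMM21 overlapped, and its log2 fold change was 0.07 with a 95% interval from -0.24 to 0.37.

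**Figure D2:**
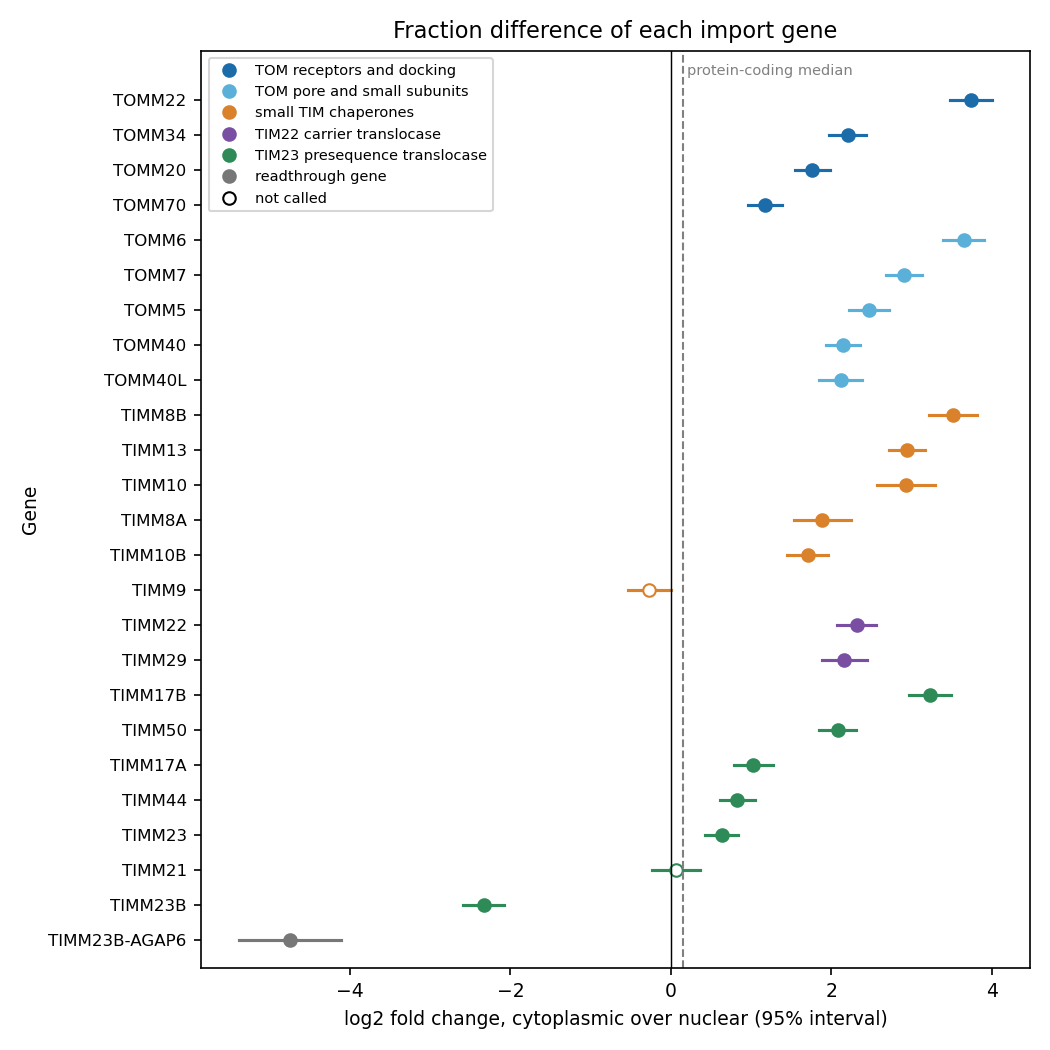
Log2 fold change, cytoplasmic over nuclear, of the 25 tested import genes with 95% intervals from limma, coloured by role; open circles were not called and the dashed line is the median of tested protein-coding genes at 0.15. The TOM genes lie between 1.18 and 3.74. The TIM23 genes spread from -2.33 for TIMM23B to 3.23, and the lowest of them beside TIMM23B is TIMM21 at 0.07.

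TIMM23 has a close copy on the same chromosome, TIMM23B, and both start from nearly the same promoter sequence. The promoter windows of RefSeq on GRCh38.p14, 250 bases before to 50 after the start, are shown because they make the likeness of the pair visible. They align over 294 bases with an offset of 6, and capitals mark the 5 positions at which they differ, so that 98.3% of the aligned bases are identical. The window of TIMM23 is chr10:45972239-45972538 and that of TIMM23B is chr10:49941803-49942102, both on the plus strand.
TIMM23: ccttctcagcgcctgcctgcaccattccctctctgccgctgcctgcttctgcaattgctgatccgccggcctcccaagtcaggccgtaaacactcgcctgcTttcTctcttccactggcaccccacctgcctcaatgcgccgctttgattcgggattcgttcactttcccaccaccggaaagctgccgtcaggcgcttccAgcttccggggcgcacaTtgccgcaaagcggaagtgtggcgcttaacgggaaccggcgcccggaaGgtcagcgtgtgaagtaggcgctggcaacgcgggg
TIMM23B: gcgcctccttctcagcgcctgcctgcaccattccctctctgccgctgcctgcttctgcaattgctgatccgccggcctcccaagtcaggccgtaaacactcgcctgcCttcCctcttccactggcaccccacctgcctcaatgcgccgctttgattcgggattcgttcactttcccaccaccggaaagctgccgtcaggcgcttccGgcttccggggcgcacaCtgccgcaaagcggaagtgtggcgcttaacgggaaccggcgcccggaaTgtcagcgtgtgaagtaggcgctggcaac

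Despite this likeness the RNA of both genes was distributed differently. TIMM23B (chr10:49942049-49974850) had normalized read counts of 367 and 326 in cytoplasm and 1807 and 1698 in nucleus. Its log2 fold change was -2.33 ± 0.13 (limma adjusted p = 7.09e-17), which is 5.05-fold towards the nucleus, while TIMM23 lay 1.55-fold towards the cytoplasm. TIMM23B had 313 and 246 reads for 2251 and 2087 of TIMM23 in the cytoplasmic libraries, and 2423 and 2019 for 2323 and 2083 in the nuclear ones. The ratio of TIMM23B to TIMM23 was thus 0.139 and 0.118 in cytoplasm and 1.04 and 0.969 in nucleus, a 7.85-fold change that does not depend on how the libraries are scaled. The log2 fold changes of the pair differed by -2.97, with a 95% normal interval from -3.29 to -2.65.

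Some reads of the pair may not be assignable to a single gene. Of all stretches of 100 bases in the TIMM23 gene span, introns included, 17.2% occur without a difference in the TIMM23B span. For TIMM23B the share found in TIMM23 is 16.4%. In the canonical spliced transcripts, 5.04% of such stretches of TIMM23 occur in transcripts of TIMM23B, and 2.30% of those of TIMM23B occur in transcripts of TIMM23. Transcripts of TIMM23B-AGAP6, which starts at the same locus, hold 28.7% of those of TIMM23B. The split of reads between these genes is therefore uncertain, and its effect on their levels was not tested. The whole TIMM23B span is also overlapped in the annotation by PARG and by the readthrough gene TIMM23B-AGAP6, and the part of this overlap in the result was not tested.

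TIMM23B-AGAP6 (chr10:49942056-50011654) joins TIMM23B to its downstream neighbour AGAP6 and has the same promoter window as TIMM23B. It had 18 and 12 reads in the cytoplasmic libraries and 708 and 590 in the nuclear ones. Its log2 fold change of -4.75 ± 0.31 was the lowest of all import genes, 26.9-fold towards the nucleus. The study's methods removed transcripts marked as readthrough and stretches covered by several genes before counting, so it is not known which parts of this locus were counted. Overlap with other annotated genes was common among the import genes: 9 of the 26 are overlapped over at least 50% of their span, among them TOMM6, TIMM17B, TOMM5 and TIMM10B over all of it. This overlap is that of GENCODE 44 with genes on either strand. It does not describe the modified annotation on which the authors counted reads. Of the 17 genes overlapped over less than that, 16 were called towards the cytoplasm and none towards the nucleus, with a median log2 fold change of 2.12. Without TIMM23B and TIMM23B-AGAP6, 21 of 23 import genes were called towards the cytoplasm, none towards the nucleus, and the median log2 fold change was 2.15. The uncalled genes TIMM9 and TIMM21 had unadjusted p of 0.051 and 0.66 in limma.

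Ratios of read counts within a library do not depend on library scaling, and they show how the balance of related genes differed between fractions. These counts are not divided by length, so only the change of a ratio between fractions is compared. With 2 libraries a fraction, the exact two-sided permutation test cannot go below p = 0.333. The difference between the log2 fold changes of a pair is given with a 95% normal interval from the combined SE, which treats both genes as independent. The pairs were picked with the single values known.

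Among the paralogs, TIMM17B over TIMM17A was 2.66 and 2.49 in cytoplasm and 0.515 and 0.612 in nucleus, a 4.58-fold change with a log2 difference of 2.20 (interval from 1.86 to 2.54). TIMM8B over TIMM8A was 4.28 and 2.78 in cytoplasm and 1.08 and 1.16 in nucleus, a 3.07-fold change with a log2 difference of 1.63 (1.19 to 2.08). For the paralogs of the pore, TOMM40L over TOMM40 was 0.209 and 0.233 in cytoplasm and 0.223 and 0.227 in nucleus. These values overlapped, and the log2 fold changes of TOMM40L and TOMM40 differed by -0.03 (-0.36 to 0.30). TOMM40L and TOMM40 spanned 4.81 and 13.1 kb. TIMM17B and TIMM17A spanned 4.70 and 15.2 kb, and TIMM8B and TIMM8A 2.00 and 3.08 kb. The part of span in these ratios was not tested.

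Read counts of subunits that work in the same complex also differed in balance between fractions. TIMM9 over TIMM10 was 0.771 and 0.735 in cytoplasm and 8.56 and 5.57 in nucleus, the largest change of the 8 ratios at 9.18-fold, with a log2 difference of -3.20 (-3.64 to -2.76). TIMM8A over TIMM13 was 0.0727 and 0.0891 in cytoplasm and 0.171 and 0.162 in nucleus, a 2.07-fold change with a log2 difference of -1.06 (-1.46 to -0.66). TOMM70 over TOMM22 was 0.887 and 0.83 in cytoplasm and 5.67 and 4.53 in nucleus, a 5.91-fold change between receptors of the same complex, with a log2 difference of -2.57 (-2.89 to -2.24). TIMM44 over TIMM50 was 0.983 and 0.77 in cytoplasm and 2.20 and 1.96 in nucleus, a 2.38-fold change with a log2 difference of -1.25 (-1.56 to -0.95). In these 4 pairs the nuclear ratios lay above both cytoplasmic ones. The gene with the lower log2 fold change was the numerator in each of them, so the shared direction follows from that order.

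**Figure D3:**
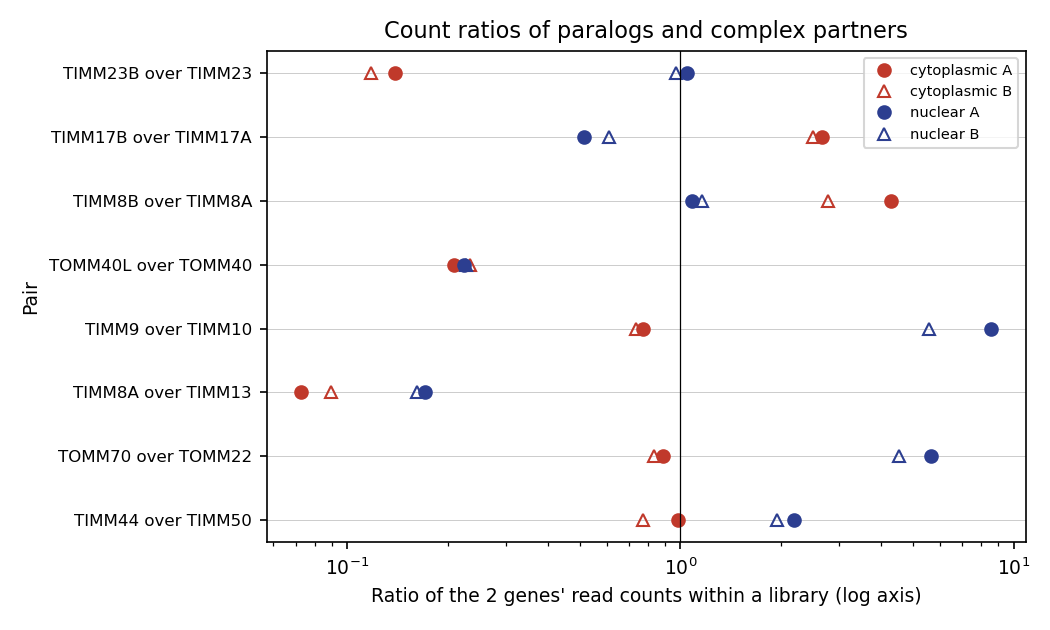
Ratio of the read counts of 2 import genes within each library on a log axis, with red for cytoplasmic, blue for nuclear, filled circles for library A and open triangles for library B. The fractions separate in all pairs but TOMM40L over TOMM40, where all values lie between 0.209 and 0.233. The pairs were picked with the single values known, and the share of other gene pairs that separate was not counted. Among single tested genes, 91.6% separated.

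The import genes are short, and the log2 fold change was lower for longer genes. In GENCODE 44, 22 of the 26 genes span less than 20 kb, and the median span of the tested import genes was 10.2 kb against 36.4 kb for the tested protein-coding genes. Across the 25 tested import genes, Spearman's rho between span and log2 fold change was -0.77 and Pearson's r with log10 span was -0.76. Across 13463 tested protein-coding genes with a span, rho was -0.66. Without TIMM23B and TIMM23B-AGAP6, rho across 23 genes was -0.71. These are descriptions across genes of the same 4 libraries, which are not independent replicates. With the intronic percentage of the span in place of the span, rho was -0.52 across the 25 genes, -0.39 without TIMM23B and TIMM23B-AGAP6, and -0.57 across the protein-coding genes.

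The import genes were also set beside protein-coding genes of like span. Of the 25 genes, 16 lay above the median of their span class and 21 above the median of all tested protein-coding genes. All 10 import genes of at most 5 kb were called towards the cytoplasm, where 86.4% of the 992 protein-coding genes of that span were, and their medians were 2.94 and 2.23. Of the 9 genes between 10 and 20 kb, 7 were called, against 67.3% of 2134 protein-coding genes, and the medians were 1.77 and 1.02. In this class TOMM7, TOMM34, TOMM40, TIMM50 and TOMM20 lay above the upper quartile of 1.71, and TIMM21 and TIMM9 lay below the lower quartile of 0.22. TOMM70, the longest TOM gene at 37.7 kb, lay above the upper quartile of 1.09 for its class. TIMM23 at 31.3 kb and TIMM23B at 32.8 kb fell in the same class, whose median was 0.43, and lay on either side of it.

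**Figure D4:**
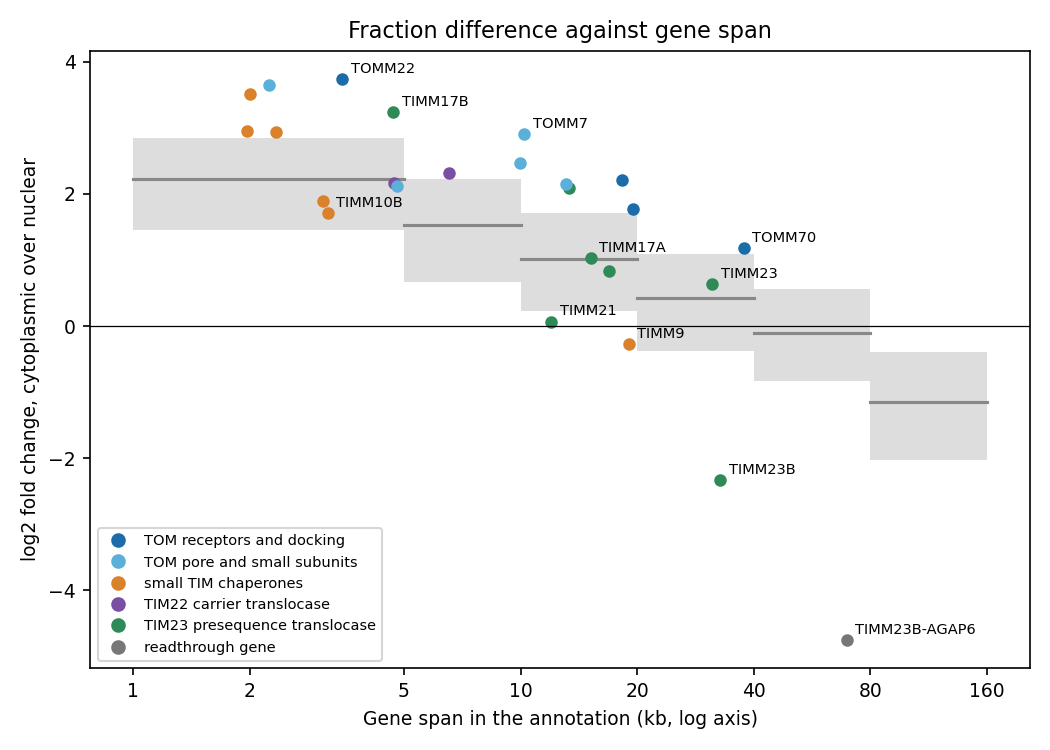
Log2 fold change, cytoplasmic over nuclear, of the tested import genes against gene span in kb on a log axis, coloured by role; grey lines and bands are the median and the quartiles of tested protein-coding genes in span classes up to 5, 10, 20, 40 and 80 kb and above, with the outer classes drawn from 1 and to 160 kb. TIMM23B and TIMM23B-AGAP6 lie far below the band of their class, and TOMM22 and TOMM7 lie above theirs.

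Genes that work beside the translocases were described from a list of 35 partners, of which HSPD1 was not solved and 34 were tested. The cytoplasm was higher for 21 (61.8%) and the nucleus for 9 (26.5%), and 4 were not called. The shares over all tested genes were 38% and 39.7%. Their median log2 fold change was 1.04 and their median span 29.9 kb. The 3 with the largest cytoplasmic difference were ROMO1, MICOS13 and GFER. ROMO1, a small subunit of the presequence translocase, had 1596 and 1550 reads in cytoplasm and 178 and 197 in nucleus, with a log2 fold change of 3.73. MICOS13, of the cristae organizing complex, reached 3.11, and GFER, the oxidase of the intermembrane space relay, reached 2.65.

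At the other end were IMMP2L, DNAJC15 and IMMP1L. IMMP2L, a subunit of the inner membrane peptidase, had 286 and 248 reads in the cytoplasmic libraries and 16412 and 12979 in the nuclear ones, with a log2 fold change of -5.12, and it spans 900 kb. IMMP1L, the other subunit of that peptidase, had a log2 fold change of -1.83. DNAJC15, a motor co-chaperone, had a log2 fold change of -2.30 from at most 59 reads in any library. By role, 6 of 7 genes of the motor and translocase and all 3 of the relay were called towards the cytoplasm, against 38% of all tested genes. Their median spans were 9.41 and 12.8 kb. Towards the nucleus were called 3 of 6 genes of presequence removal (50%) and 3 of 7 of the cristae complex (42.9%). For such short lists these shares lay near the 39.7% of all tested genes. The median spans of these lists were 76.5 and 89.4 kb.

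Counts were also made for other mitochondrial genes encoded in the nucleus. Of 77 tested genes of mitochondrial ribosomal proteins, 69 were called towards the cytoplasm and 5 towards the nucleus, with a median log2 fold change of 2.06. Of 71 tested genes of the respiratory chain, 67 and 3 were called, with a median of 2.11. This list was made by symbol and is not limited to subunits. It takes in every gene named COX and a digit, among them COX10, COX15 and COX18, and COX18 is also on the list of partners. The corresponding shares towards the cytoplasm were 84% for the import genes, 89.6% for the ribosomal proteins and 94.4% for the respiratory chain. The median spans of these lists were 10.2, 12.4 and 12.7 kb, against 36.4 kb for the tested protein-coding genes. Of protein-coding genes between 10 and 20 kb, 67.3% were called towards the cytoplasm. Over all tested protein-coding genes the shares were 42.9% towards the cytoplasm and 35.7% towards the nucleus. No test between the lists was made.

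The pseudogenes of the family added little. The table lists 20 of them, 7 had a mean above 0, and none reached a mean normalized count of 10. The highest mean was 1.41, for TOMM20P4, which is named here after its value was seen. Stretches of 100 bases shared with another family member were found in the canonical transcripts of 6 import genes, at 7.91% for TOMM40, 2.70% for TIMM8A and 0.283% for TOMM20 beside the 3 genes of the TIMM23 group.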

How the data were processed

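The authors aligned reads to hg38 with STAR, counted them over exons and introns with featureCounts 2.0.2 on a modified GENCODE annotation without overlapping stretches or readthrough transcripts, and compared the fractions with DESeq2. Whether strand was used in counting is not given in the sources used here. The deposited table holds, per gene, a mean normalized count over the 4 libraries, a signal made by the authors. It also holds the authors' log2 fold change with its standard error on the log2 scale, a Wald statistic taken as a score, and deposited p-values, raw and adjusted. The fold change and its error served only to solve the counts, and none of these comparison columns is printed or compared. A positive deposited log2 value was taken as cytoplasmic, per the authors' naming of the comparison.

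A read is worth 1 over 4 times a library's size factor in the deposited mean. The whole counts of the libraries were searched that give the mean to its 10 significant digits and match the fold change. Where the mean was low or a fraction had few reads, a single solution from the mean alone was also accepted. Together these searches solved 17395 of 17689 genes (98.3%) with a mean of at least 10. The solver and the fit were tried on simulated data. Those for the solver were made with its own formulas, so they cannot show whether these formulas match the authors' software. Genes with a mean above 20000 were not searched, and others had no or several solutions; they enter only the library totals, at the mean of their fraction. Because the counts were solved from summary values, the test was limma 3.58.1 (R 4.3.3) on voom values with the size factors as scale, fraction as the only term, Benjamini-Hochberg adjustment over all tested genes and a threshold of 0.01. No count model was run. The labels call the replicates biological, and p-values rest on 2 libraries a fraction.

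Spans and overlaps came from GENCODE 44, the overlaps without regard to strand, whereas the authors' modified annotation was made from another release. Promoters came from RefSeq, with an entry for 24 of the 26 genes. Every import gene is named. Partners are named for the 3 largest called changes in each direction, and pseudogenes from a mean of 10. TOMM20P4 lies below that mean and is named outside this rule, after its value was seen. The members and lists were chosen with earlier results of these data known. Python 3.11.15 was used with scipy 1.17.1. Alternatives covered scaling, weighting, pseudocount, filter, left-out libraries, pairing and Bonferroni adjustment. Intervals cover the spread of the libraries only.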

Additional observations from a re-analysis of the deposited data

How the results depend on the processing

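Scaling to equal totals gave 4210 genes higher in cytoplasm over all tested genes, in place of 6613, and 4 import genes higher in nucleus, in place of 2. The median log2 fold change was then 1.46 for the import genes and 0.38 for the partners; centred on the protein-coding median it was 1.97 and 0.89. Equal totals turned TIMM23 to -0.029 and TIMM21 to -0.60. TIMM44 was 0.17 there (adjusted p = 0.14) and TIMM9 -0.93. Centring turned TIMM21 to -0.081 and moved TIMM9 to -0.42, which was then called (adjusted p = 0.005). With each library left out in turn, TIMM21 lay between -0.0063, without cytoplasmic library A, and 0.134. Bonferroni adjustment left 4373 genes higher in nucleus in place of 6906 and 5 partners in place of 9, and TIMM23 was no longer called (adjusted p = 0.0134). Without TIMM23B and TIMM23B-AGAP6, a choice made after seeing the data, the count of import genes higher in nucleus was 0. Of the other values, 96 counts and medians stayed within 1.5 times the count or within the spread between replicates, and 317 values of single genes kept their direction and side of the threshold. Leaving out each library in turn gave 21 import genes higher in cytoplasm and 2 higher in nucleus each time, with a median between 2.04 and 2.20; such a fit has 1 library in an arm, assumed to vary like the other fraction. The labels do not say which cytoplasmic and nuclear libraries share a replicate, so the replicate block was fitted under both possible pairings, a choice made after seeing the data. Pairing A with A and A with B left 21 import genes higher in cytoplasm and 2 higher in nucleus, and over all genes gave 6359 and 6836 higher in cytoplasm and 6612 and 7097 higher in nucleus. No count model was run, because one was planned only for the case of deposited counts per library.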
